A study of Mus musculus with 2 samples.

Results

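The genes of drug metabolism and glutathione conjugation were examined in 2 mouse prostate tumour samples, both taken at 16 months, one of the genotype named Met_Bcat and one of the genotype named Bcat_Only. Members were the rows of the deposited count table whose symbol names a P450 of families 1 to 4, a glutathione S-transferase, a UDP-glucuronosyl transferase or a sulfotransferase, together with 9 genes given by name, Mgst1, Mgst2, Mgst3, Nqo1, Hmox1, Gclc, Gclm, Txnrd1 and Srxn1. The rule found 147 of 27376 genes, and 52 of the 147 averaged at least 1 CPM (counts scaled to library size) over the libraries. Symbols alone chose the members, so the set also holds enzymes of lipid metabolism, such as Ugt8a and most of P450 family 4, and pseudogenes such as Gstm2-ps1.

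Each genotype was represented by 1 library of poly(A) RNA from whole fresh tumour, so every difference below compares 2 tumours, has no replicate check and carries a 95% interval for counting error alone. Per the file headers, the Bcat_Only column names a beta-catenin exon allele, written Bcat_ex3Plus, and PB Cre, a name in common use for Cre recombinase under the probasin promoter of prostate epithelium, while the Met_Bcat column names no allele. For Met_Bcat the genotype name alone was used, and what separates the genotypes beyond their names was not analysed here. The libraries held 20117724 reads in Met_Bcat and 19301062 in Bcat_Only. The genes behind the genotype names did not separate the libraries: Met stood at 166 CPM in Met_Bcat and 169 CPM in Bcat_Only, and Ctnnb1 at 974 CPM in Met_Bcat and 981 CPM in Bcat_Only. Counts at the whole mouse gene do not check a foreign transgene or a deleted exon.

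The tissue carried its prostate markers in both libraries, and 13 of 13 luminal epithelial markers were measured, with summed levels of 7778 CPM in Met_Bcat and 4433 CPM in Bcat_Only. Of these 13, 5 were higher in Met_Bcat and 1 was lower by the 2-fold rule given below. Markers of other tissues differed between the libraries, which with 1 tumour each cannot be tied to the genotype. The 10 fibroblast markers summed to 902 CPM in Met_Bcat and 24078 CPM in Bcat_Only, and the 9 macrophage markers to 340 CPM in Met_Bcat and 1805 CPM in Bcat_Only. The 10 neutrophil markers summed to 779 CPM in Met_Bcat and 7405 CPM in Bcat_Only, and the 7 seminal vesicle secretory genes to 4.74 CPM in Met_Bcat and 6875 CPM in Bcat_Only. Of these, Cd163, Elane, Svs3a, Svs3b and Svs6 had 0 reads in Met_Bcat. By the 2-fold rule, 8 of 8 smooth muscle and 6 of 8 endothelial markers were also lower in Met_Bcat, and 0 were higher. So were 5 of 6 B and plasma cell and 3 of 3 adipocyte markers at or above 1 CPM. A cell type named beside a lower gene below is therefore not the only one that was lower. In whole tissue, fewer cells of a type and less RNA per cell cannot be told apart. The 13 hepatocyte markers summed to 2.23 CPM in Met_Bcat and 3.75 CPM in Bcat_Only, and Alb, the albumin gene, had 0 reads in Met_Bcat.

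As background, cells clear lipophilic compounds in steps. P450 enzymes oxidise them, transferases then join the product to glutathione, glucuronic acid or sulfate, and exporters move the conjugate out of the cell. Many of these genes respond to receptors that sense chemicals, among them AHR for aromatic compounds, and to NRF2, a factor that is held back by KEAP1 and released by oxidative stress to bind antioxidant response elements.

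Among the 52 members at or above 1 CPM, 3 were higher in Met_Bcat and 11 were lower, counting a gene only where its whole interval lay beyond 2-fold. The higher members were Ugt8a, Gclm and Cyp4f39. The lower members were Cyp1b1, Sult1a1, Cyp2d22, Hmox1, Ugt1a7c, Cyp2f2, Cyp4b1, Sult5a1, Cyp4f18, Gsta3 and Ugt2b34. Over all 14354 genes at or above 1 CPM, 4.42% were higher by this rule and 14.6% lower, beside 5.77% of the members higher and 21.2% lower, so the share of higher members lay near that of all genes and the share of lower members above it. Without the members whose span overlaps another gene, 6 of 37 were lower, a share nearer to that of all genes. The median log2 ratio of Met_Bcat over Bcat_Only, with 0.5 CPM added to each level, was -0.26 over the members (quartiles -1.08 and 0.34) and 0.030 over all genes (quartiles -0.53 and 0.33). A log2 ratio within 0.5 of 0 was found for 21 of 52 members (40.4%), against 58.5% of all genes.

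**Figure D1:**
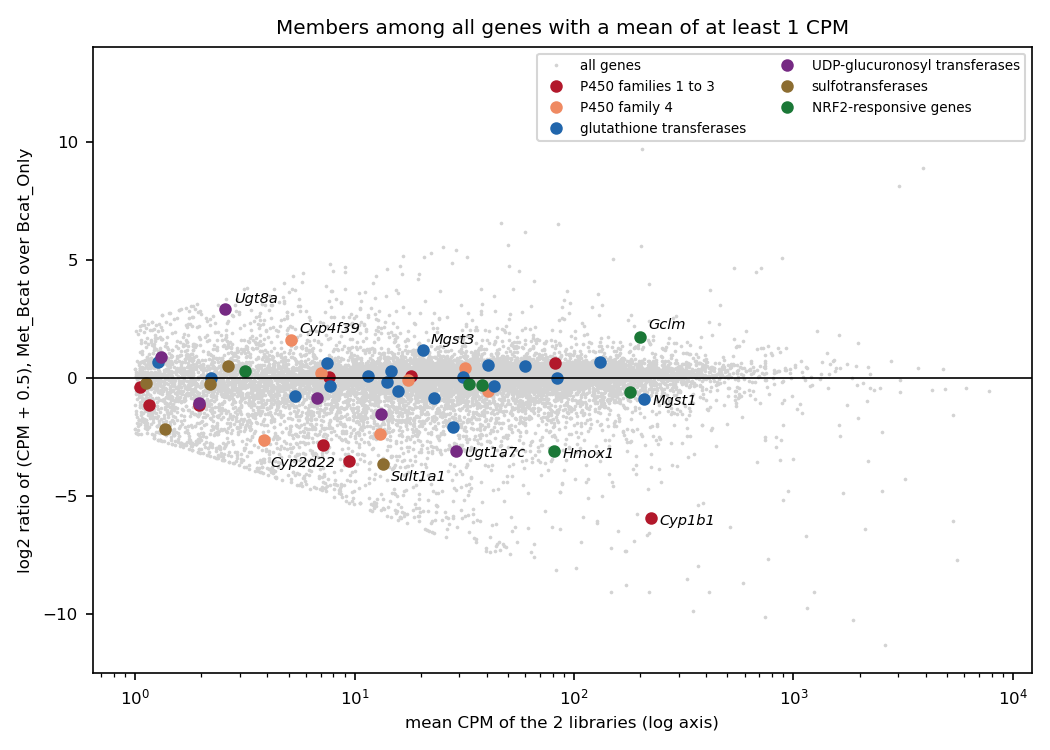
Each point is 1 gene with a mean of at least 1 CPM, by its mean CPM over the 2 libraries (log axis) and its log2 ratio of Met_Bcat over Bcat_Only with 0.5 CPM added; members are coloured by enzyme group and all other genes are grey. Cyp1b1 at -5.95 lies far below the other members, and Gclm at 1.73 and Ugt8a at 2.92 lie above the other members.

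The 147 members together took 0.160% of the reads in Met_Bcat (exact interval 0.158% to 0.162%) and 0.205% in Bcat_Only (0.203% to 0.207%). Cyp1b1 alone held 8111 of the 39562 member reads in Bcat_Only, and Gclm 6504 of the 32171 in Met_Bcat. Without Cyp1b1 the members summed to 1520 CPM in Met_Bcat and 1707 CPM in Bcat_Only, a ratio of 0.89 (0.877 to 0.904), in place of 0.711 (0.70 to 0.721) with it.

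The remaining 95 members were below 1 CPM: 65 had no read in either library and 30 had a few, with 72 reads in all in Met_Bcat and 148 in Bcat_Only. The large clusters that dominate drug metabolism in liver were in this class. The 15 Cyp2c genes held 5 reads in Met_Bcat and 3 in Bcat_Only, the 9 Cyp3a genes 24 in Met_Bcat and 3 in Bcat_Only, and the 4 Cyp2a genes 1 in Met_Bcat and 0 in Bcat_Only. The 6 Cyp4a genes held 0 reads in Met_Bcat and 10 in Bcat_Only, and the 6 Sult2a genes 0 in both. The members nearest to the threshold were Cyp2r1, Sult1c2 and Cyp2b19 just inside it, at means of 1.05, 1.12 and 1.16 CPM, and Sult1e1, Cyp2u1 and Cyp2b10 just outside, at 0.923, 0.834 and 0.634 CPM. Sult1e1, the oestrogen sulfotransferase, had 0 reads in Met_Bcat and 34 in Bcat_Only, at least 12.96-fold lower against a floor of 3 reads and 9.98-fold lower at the near end of its counting interval. Cyp3a16 ran the other way, with 18 reads in Met_Bcat and 0 in Bcat_Only, at least 5.24-fold higher by the same floor and 3.84-fold at the near end of its interval.

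The 6 NRF2-responsive genes given by name did not move as a block: 1 was higher and 1 lower, and their median log2 ratio was -0.28. Gclm encodes the modifier subunit of glutamate-cysteine ligase, the rate-limiting enzyme of glutathione synthesis, and lies at mm9 chromosome 3, 121948475 to 121972902 (ENSMUSG00000028124). It had 6504 reads or 309 CPM in Met_Bcat and 1705 reads or 92.5 CPM in Bcat_Only, 3.33-fold higher (3.16 to 3.52). Of the transcript words of 51 bases of Gclm, 3.87% also occur in other genes, among them Ppia. Gclc, which encodes the catalytic subunit of the same ligase, had 719 reads or 34.1 CPM in Met_Bcat and 779 reads or 42.3 CPM in Bcat_Only, a ratio of 0.807 (0.728 to 0.894). Inside each library, and therefore free of any scaling between them, reads per exon length of Gclm were 5.59 times those of Gclc in Met_Bcat and 1.35 times in Bcat_Only. The ratio of these ratios was 4.13 (3.68 to 4.64), so the subunit messages stood in different proportions in these libraries.

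Hmox1, the inducible haem oxygenase that breaks haem down to biliverdin, went the opposite way to Gclm (chromosome 8 on mm9, 77617490 to 77624495). Hmox1 had 349 reads or 16.6 CPM in Met_Bcat and 2694 reads or 146 CPM in Bcat_Only, 8.83-fold lower (7.90 to 9.90). Macrophages that take up haem express Hmox1, and 9 of 9 measured macrophage markers were lower in Met_Bcat in the same libraries, with a median log2 ratio of -2.21. Their levels ran up to 93.99 CPM in Met_Bcat and 385 CPM in Bcat_Only, and Cd163, the haemoglobin scavenger receptor, had 0 reads in Met_Bcat and 828 in Bcat_Only. Their part in the Hmox1 value was not tested.

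The other NRF2-responsive members lay within 2-fold. Txnrd1, the cytosolic thioredoxin reductase, had 142 CPM in Met_Bcat and 217 CPM in Bcat_Only, a ratio of 0.652 (0.622 to 0.684). Srxn1, sulfiredoxin, which repairs over-oxidised peroxiredoxins, had 30.03 CPM in Met_Bcat and 36.1 CPM in Bcat_Only, a ratio of 0.832 (0.745 to 0.929). Nqo1, the quinone reductase often read as an NRF2 reporter, was scarce, with 75 reads in Met_Bcat and 51 in Bcat_Only and a ratio of 1.29 (0.889 to 1.87) whose interval spans no difference. The summed level of the 6 genes was 534 CPM in Met_Bcat and 537 CPM in Bcat_Only, while Gclm made up 45.8% of the group's level per length in Met_Bcat and 10.1% in Bcat_Only, and Hmox1 6.31% in Met_Bcat and 40.9% in Bcat_Only.

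Promoter letters are given for the NRF2-responsive genes with a match before the start, Gclm, counted as higher, and Txnrd1, counted neither way, and for Mgst1, the glutathione transferase with the highest mean level per length. Hmox1 and Gclc had no promoter among those available, so whether they hold a match was not examined. The sequences are the 250 bases before the annotated start in RefSeq on GRCm38.p6, 5′ to 3′ along the gene, a build other than that of the counts, and capitals mark matches to TGACNNNGC, the core of the antioxidant response element, on either strand. They lie at chr3:122245307-122245556 (forward strand), chr10:82858956-82859205 (forward strand) and chr6:138140277-138140526 (forward strand). Txnrd1 has 3 starts in the table and Mgst1 has 2, and the start with a match is shown.
Gclm: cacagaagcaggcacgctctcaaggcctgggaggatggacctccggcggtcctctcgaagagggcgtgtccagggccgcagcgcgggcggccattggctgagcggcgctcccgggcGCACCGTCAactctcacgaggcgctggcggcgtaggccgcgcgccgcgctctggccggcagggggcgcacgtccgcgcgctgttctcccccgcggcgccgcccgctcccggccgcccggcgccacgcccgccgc
Txnrd1: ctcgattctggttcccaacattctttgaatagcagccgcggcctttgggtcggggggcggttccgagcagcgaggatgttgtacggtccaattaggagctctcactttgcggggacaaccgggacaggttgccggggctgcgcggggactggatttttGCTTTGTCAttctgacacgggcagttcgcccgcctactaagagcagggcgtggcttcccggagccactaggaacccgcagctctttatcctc
Mgst1: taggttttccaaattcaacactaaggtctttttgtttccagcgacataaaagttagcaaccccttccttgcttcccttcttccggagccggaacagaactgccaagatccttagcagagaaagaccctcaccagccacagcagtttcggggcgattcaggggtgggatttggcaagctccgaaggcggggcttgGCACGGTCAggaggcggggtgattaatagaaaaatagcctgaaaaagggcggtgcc

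The match begins 134 bases before the start in Gclm, 92 in Txnrd1 and 56 in Mgst1, each on the reverse strand relative to the gene. These genes had ratios of 3.33, 0.652 and 0.542, so among the genes shown a match went with values on either side of 1. Of the other members at or above 1 CPM with a match before the start, Gsta3 and Cyp4f18 were lower, and Gstm5 and Gstm7 were counted neither way. In windows reaching from 250 bases before to 50 after the start, 12.4% of the 32851 RefSeq promoters hold this motif as do 9.22% of the 141 promoters of all members and 18.2% of the 55 promoters of members at or above 1 CPM. Those 55 belong to 44 members, of which 10 hold a match. Cyp4f39, counted as higher, and Srxn1 and Cyp2j6, counted neither way, have their match after the start, and the Nqo1 window holds no match. A match describes the letters and is not a binding site.

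**Figure D2:**
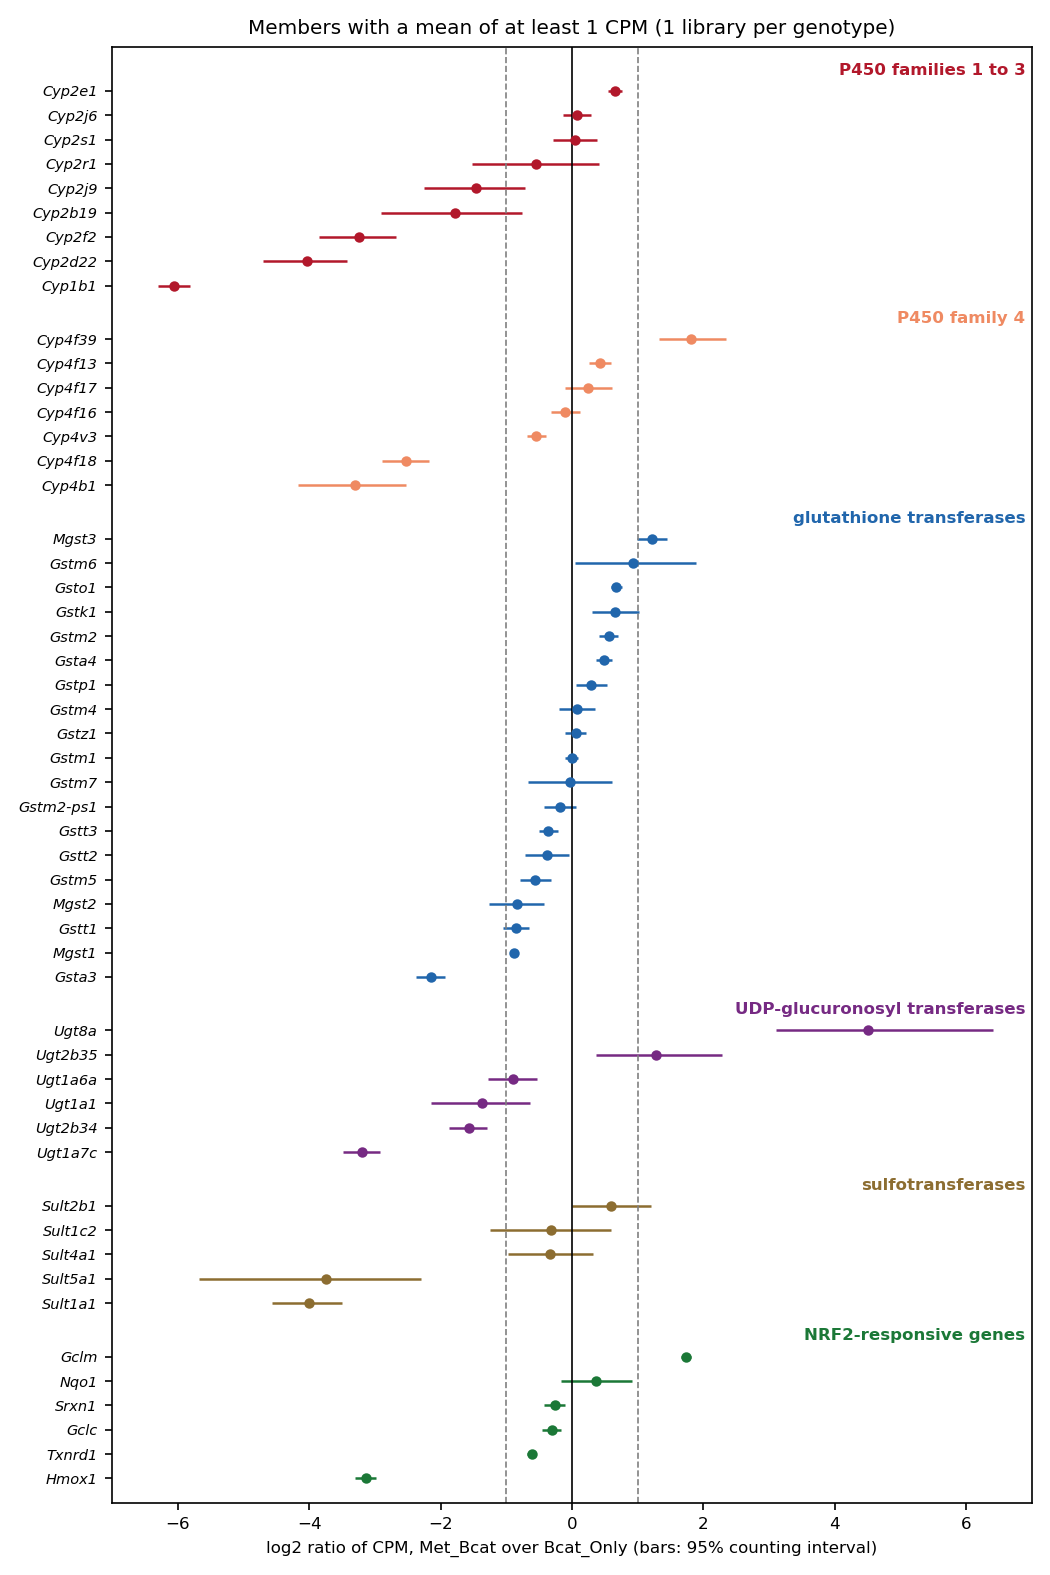
The log2 ratio of CPM, Met_Bcat over Bcat_Only, is plotted for each of the 52 members at or above 1 CPM, grouped by enzyme class and ordered by ratio; bars are 95% counting intervals and dashed lines mark 2-fold. Cyp1b1 has the lowest value and Ugt8a, with 4 reads in Bcat_Only, the highest, while the glutathione transferases other than Gsta3 and Mgst3 cluster between -1 and 1.

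P450 families 1 to 3, which oxidise drugs, steroids and aromatic compounds, held 61 members, of which 9 were at or above 1 CPM, 0 of them higher and 3 lower. Their median log2 ratio was -1.13. Cyp1b1, an enzyme of oestradiol and polycyclic hydrocarbon oxidation, lies on chromosome 17 of mm9 from 80106234 to 80114401. Cyp1b1 had 140 reads or 6.64 CPM in Met_Bcat and 8111 reads or 440 CPM in Bcat_Only, 66.3-fold lower (56.1 to 78.9). By level per length it was the second of the 52 members in Bcat_Only, at 84.5 RPKM (CPM per kilobase of exon), and rank 37 in Met_Bcat, at 1.28 RPKM. Cyp1b1 is also a gene of stromal cells, and 10 of 10 fibroblast markers were lower in Met_Bcat, with a median log2 ratio of -4.83. The fibroblast markers ranged up to 314 CPM in Met_Bcat and 10493 CPM in Bcat_Only, with no marker at 0 reads. Smooth muscle markers were lower as well, 8 of 8 with a median log2 ratio of -3.92, as were 6 of 8 endothelial markers, with a median of -1.22. The part of these cells in the Cyp1b1 value was not tested.

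Cyp1b1 is a classical target of AHR, whose binding core is GCGTG. One match, on the reverse strand relative to the gene, lies in the 250 bases before its RefSeq start, at GRCm38.p6 chr17:79715062-79715311 (reverse strand). The letters run 5′ to 3′ along the gene, where the match, in capitals, reads CACGC.
Cyp1b1: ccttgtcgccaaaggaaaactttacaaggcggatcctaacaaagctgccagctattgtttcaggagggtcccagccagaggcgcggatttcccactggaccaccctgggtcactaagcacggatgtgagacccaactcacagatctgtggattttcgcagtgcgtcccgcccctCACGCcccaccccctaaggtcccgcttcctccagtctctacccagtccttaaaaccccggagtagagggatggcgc

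This short motif is found in 32.4% of all RefSeq promoter windows, in 23.4% of those of all members and in 34.5% of those of members at or above 1 CPM, and a TGACNNNGC match followed by GTG would overlap it. Ahr itself had 564 CPM in Met_Bcat and 555 CPM in Bcat_Only, a ratio of 1.02 (0.989 to 1.04). Cyp1a1, another classical AHR target, had 6 reads in Met_Bcat and 4 in Bcat_Only, below the level at which a difference could be seen. Tiparp, an ADP-ribosyltransferase gene that AHR induces, stood at 16.8 CPM in Met_Bcat and 49.0 CPM in Bcat_Only, which is 2.91-fold lower (2.57 to 3.30). The part of AHR in the Cyp1b1 and Tiparp values was not tested.

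Cyp2e1, which oxidises ethanol and small solvents, was the abundant P450 of the Met_Bcat tumour. It had 2104 reads or 99.8 CPM in Met_Bcat and 1168 reads or 63.4 CPM in Bcat_Only, a ratio of 1.57 (1.47 to 1.69), which is under the size rule. Within the group it took 84.5% of the level per length in Met_Bcat and 24.7% in Bcat_Only, where Cyp1b1 took 60.1%. Cyp2d22, a mouse relative of the human drug oxidase CYP2D6, was 16.3-fold lower (10.7 to 26.1), with 23 reads in Met_Bcat and 328 in Bcat_Only. Cyp2f2, known from mouse lung for its oxidation of naphthalene, was 9.47-fold lower (6.42 to 14.4), with 29 reads in Met_Bcat and 240 in Bcat_Only. The airway club cell markers Scgb3a2 and Sftpb had 0 reads in both libraries, and the 5 airway markers summed to 0.807 CPM in Met_Bcat and 0.868 CPM in Bcat_Only. Which cells gave the Cyp2f2 reads was not tested.

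The epoxygenase gene Cyp2j6 and the extrahepatic P450 gene Cyp2s1 had ratios near 1, at 1.05 (0.905 to 1.22) and 1.03 (0.818 to 1.30). Cyp2b19, a keratinocyte epoxygenase in mouse, had 11 reads in Met_Bcat and 33 in Bcat_Only, and Cyp2j9 had 22 in Met_Bcat and 53 in Bcat_Only. Cyp2r1, a vitamin D 25-hydroxylase, had 18 reads in Met_Bcat and 23 in Bcat_Only. The intervals of these scarce genes reached inside 2-fold, and they were counted neither way.

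P450 family 4, mostly fatty acid omega-hydroxylases, had 7 of 17 members at or above 1 CPM, 1 higher and 2 lower, with a median log2 ratio of -0.10 that is above 0 under scaling to total counts. Cyp4f39, the mouse counterpart of the human enzyme CYP4F22 that makes omega-hydroxy ceramides of the skin barrier, had 169 reads or 8.02 CPM in Met_Bcat and 42 reads or 2.28 CPM in Bcat_Only, 3.52-fold higher (2.50 to 5.06). It was no longer counted as higher when libraries were scaled to luminal epithelial markers. Squamous differentiation markers were higher in the same library, 8 of the 11 at or above 1 CPM by the same rule. All 14 summed to 296 CPM in Met_Bcat and 73.9 CPM in Bcat_Only, with Sprr3 at 0 reads in Bcat_Only. Of 10 prostate basal markers, 4 were higher and 1 lower, and of 13 luminal markers, 5 were higher and 1 lower. The part of these cells in the Cyp4f39 value was not tested. The other genes of its chromosome 17 cluster (32605404 to 33084347 on mm9) that reached 1 CPM had ratios nearer to 1. They were Cyp4f13 at 1.34 (1.2 to 1.5), Cyp4f17 at 1.19 (0.929 to 1.52) and Cyp4f16 at 0.929 (0.798 to 1.08).

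Cyp4f18 lies apart from that cluster on chromosome 8 and encodes, in mouse, an enzyme that inactivates leukotriene B4 in neutrophils. It had 81 reads or 3.84 CPM in Met_Bcat and 409 reads or 22.2 CPM in Bcat_Only, 5.78-fold lower (4.54 to 7.43). All 10 neutrophil markers were lower in Met_Bcat, with a median log2 ratio of -5.08 and levels up to 651 CPM in Met_Bcat, that of Ltf, and 2574 CPM in Bcat_Only. Mpo had 2 reads in Met_Bcat and 1886 in Bcat_Only, and the part of these cells in the Cyp4f18 value was not tested. The span of Cyp4f18 overlaps Zfp961 on the other strand, which had 405 reads in Met_Bcat and 370 in Bcat_Only. If counting ignored strand, reads in exon bases common to the pair would be ambiguous, and the extent of such bases was not measured. Cyp4b1, which acts on fatty acids and some protoxins, was 9.84-fold lower (5.75 to 18.1), with 15 reads in Met_Bcat and 129 in Bcat_Only. Cyp4v3, the counterpart of human CYP4V2, had a ratio of 0.687 (0.621 to 0.76).

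The glutathione transferases held few large differences. Of 25 members, 19 reached 1 CPM, of which 1 was lower and 0 were higher, and their median log2 ratio of -0.0065 was above 0 under scaling to total counts or the upper quartile. Together they took 0.0746% of the reads in Met_Bcat (0.0734% to 0.0758%) and 0.0753% in Bcat_Only (0.0741% to 0.0765%), so the raw share differed by less than counting error. After scaling, their summed level was 712 CPM in Met_Bcat and 789 CPM in Bcat_Only, a ratio of 0.903 (0.882 to 0.923). The ranking of the enzymes within the group was not the same in the libraries.

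Mgst1, a membrane-bound transferase and peroxidase, was the most abundant member per length in Bcat_Only. It stood at 73.0 RPKM in Met_Bcat and 135 in Bcat_Only, from 3096 reads in Met_Bcat and 4991 in Bcat_Only. Its ratio of 0.542 (0.518 to 0.567) was within 2-fold, and it was counted as lower only under scaling to luminal markers. Gsto1, an omega-class enzyme that reduces dehydroascorbate, took the first place in Met_Bcat, at 81.9 RPKM there and 51.3 in Bcat_Only, a ratio of 1.59 (1.51 to 1.69). Mgst3, another membrane-bound glutathione transferase and peroxidase, had 601 reads or 28.5 CPM in Met_Bcat and 226 reads or 12.3 CPM in Bcat_Only, a ratio of 2.32 (1.99 to 2.72). The lower end of its interval falls just short of 2-fold, and Mgst3 was counted as higher when libraries were scaled to total counts or to the upper quartile. Mgst2 had 81 reads in Met_Bcat and 127 in Bcat_Only, a ratio of 0.558 (0.417 to 0.743).

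The alpha class split. Gsta3, an alpha-class enzyme that in mouse detoxifies aflatoxin epoxide, lies on chromosome 1 of mm9 from 21230670 to 21255442. Gsta3 had 219 reads or 10.4 CPM in Met_Bcat and 848 reads or 46.0 CPM in Bcat_Only, 4.43-fold lower (3.81 to 5.16). Gsta4, which conjugates the lipid peroxidation product hydroxynonenal, had 1471 reads or 69.8 CPM in Met_Bcat and 917 reads or 49.8 CPM in Bcat_Only, a ratio of 1.40 (1.29 to 1.52). Reads per exon length of Gsta4 were 9.77 times those of Gsta3 in Met_Bcat and 1.57 times in Bcat_Only, a ratio of ratios of 6.21 (5.23 to 7.40).

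The mu class sits in one cluster on chromosome 3, from 107698739 to 107847812 on mm9, and its 7 genes summed to 160 CPM in Met_Bcat and 150 CPM in Bcat_Only. Gstm1, its most abundant member, stood at 59.8 RPKM in Met_Bcat and 60.0 in Bcat_Only, a ratio of 0.995 (0.929 to 1.07). Gstm2 had a ratio of 1.47 (1.33 to 1.63) and Gstm5 of 0.679 (0.577 to 0.799). The pseudogene Gstm2-ps1, on chromosome 5, at 51.1 RPKM in Met_Bcat and 57.9 in Bcat_Only, rests on 258 bases of exon. It shares sequence with Gstm1, of whose transcript words of 51 bases 18.5% also occur in other genes, so both levels are uncertain. The 3 theta-class genes of chromosome 10 that reached 1 CPM had ratios under 1, at 0.555 (0.484 to 0.636) for Gstt1, 0.766 (0.606 to 0.966) for Gstt2 and 0.779 (0.707 to 0.858) for Gstt3, each within 2-fold. Gstp1, the pi-class enzyme, had a ratio of 1.23 (1.04 to 1.45), and 33.5% of its transcript words of 51 bases also occur in other genes, among them Gstp2. Gstz1, which acts in tyrosine breakdown, had a ratio of 1.04 (0.927 to 1.16), and the mitochondrial and peroxisomal Gstk1 had one of 1.58 (1.24 to 2.02).

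**Figure D3:**
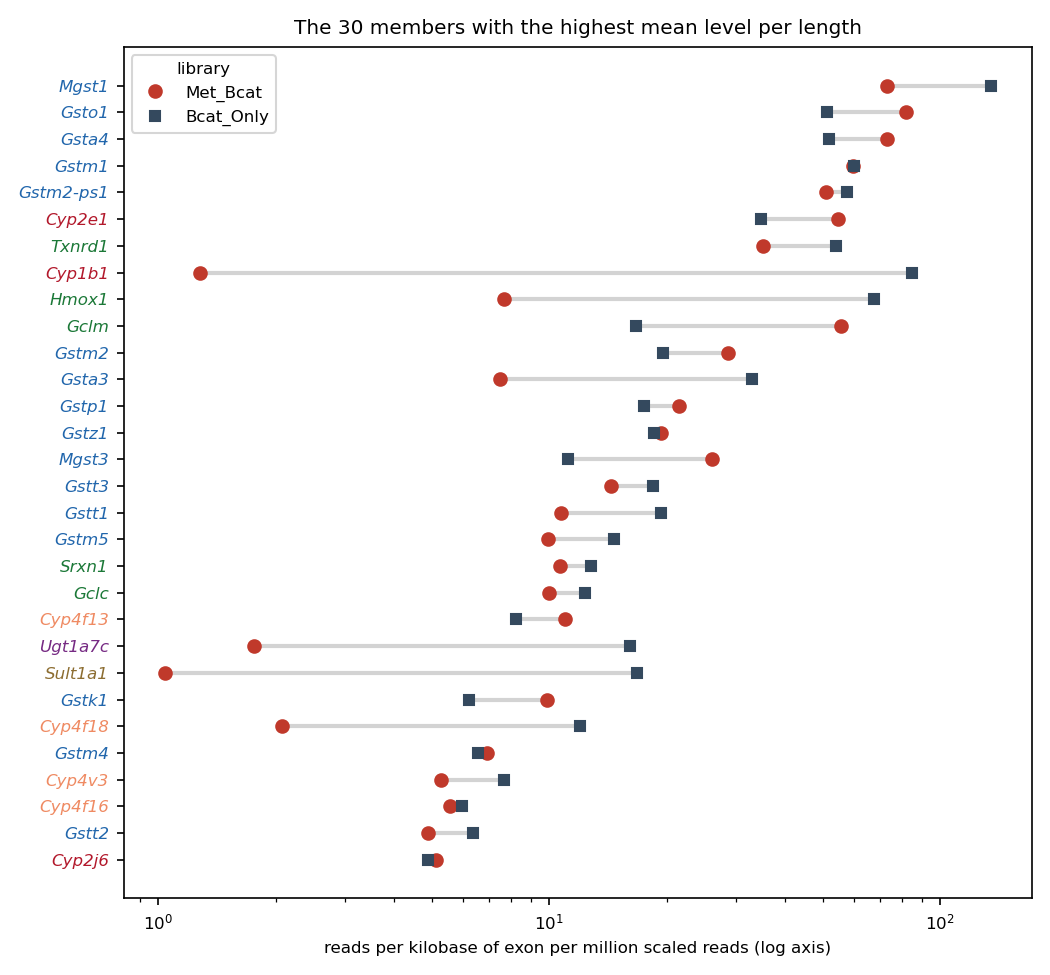
Levels in RPKM, that is CPM per kilobase of exon (log axis), are shown for the 30 members with the highest mean level, circles for Met_Bcat and squares for Bcat_Only, with gene names coloured by enzyme group as in the ratio plot. Cyp1b1 stands at 1.28 RPKM in Met_Bcat and 84.5 in Bcat_Only, Hmox1 at 7.66 in Met_Bcat and 67.7 in Bcat_Only, and Gclm at 55.7 in Met_Bcat and 16.7 in Bcat_Only, while the symbols of Gstm1 coincide.

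UDP-glucuronosyl transferases and sulfotransferases were scarce in both tumours. Of 21 UGT members, 6 were at or above 1 CPM, 1 higher and 2 lower, with a median log2 ratio of -0.95, or 0.90 over the 3 whose spans overlap no other gene. The whole group summed to 25.1 CPM in Met_Bcat and 85.1 CPM in Bcat_Only. Ugt1a7c, a phenol-conjugating enzyme, had 120 reads or 5.69 CPM in Met_Bcat and 959 reads or 52.1 CPM in Bcat_Only, 9.14-fold lower (7.55 to 11.1). The 9 Ugt1a genes use different first exons with shared last exons, 53.6% of the transcript words of Ugt1a7c also occur in other genes, and their reads may be split or dropped by counting. Summed over the locus, Ugt1a had 243 reads in Met_Bcat and 1187 in Bcat_Only, 5.59-fold lower (4.86 to 6.44). Ugt2b34, of the steroid-conjugating UGT2B group, was 2.98-fold lower (2.44 to 3.65), with 139 reads in Met_Bcat and 362 in Bcat_Only. Ugt2b35 had 39 reads in Met_Bcat and 14 in Bcat_Only, a ratio of 2.44 (1.29 to 4.86).

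Ugt8a differs from the other UGT members in function, since it joins galactose to ceramide and makes the galactolipids of myelin. It had 104 reads or 4.93 CPM in Met_Bcat and 4 reads or 0.217 CPM in Bcat_Only, 22.7-fold higher (8.62 to 84.98), and 0 of its 4484 transcript words of 51 bases occur in another gene.

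Of 17 sulfotransferases, 5 were at or above 1 CPM, 0 higher and 2 lower, with a median log2 ratio of -0.27. Sult1a1, the main phenol sulfotransferase, had 33 reads or 1.57 CPM in Met_Bcat and 465 reads or 25.2 CPM in Bcat_Only, 16.1-fold lower (11.3 to 23.7). It overlaps Ccdc101 on the other strand, which had 245 reads in Met_Bcat and 238 in Bcat_Only. Sult5a1 was 13.4-fold lower (4.91 to 51.4), with 4 reads in Met_Bcat and 47 in Bcat_Only. Sult2b1, the cholesterol sulfotransferase of skin, had 67 reads in Met_Bcat and 39 in Bcat_Only, a ratio of 1.5 (0.997 to 2.29), and made up 40.5% of the group's level per length in Met_Bcat and 5.35% in Bcat_Only. Sult1c2 and Sult4a1 had ratios of 0.798 (0.42 to 1.51) and 0.796 (0.509 to 1.24).

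**Figure D4:**
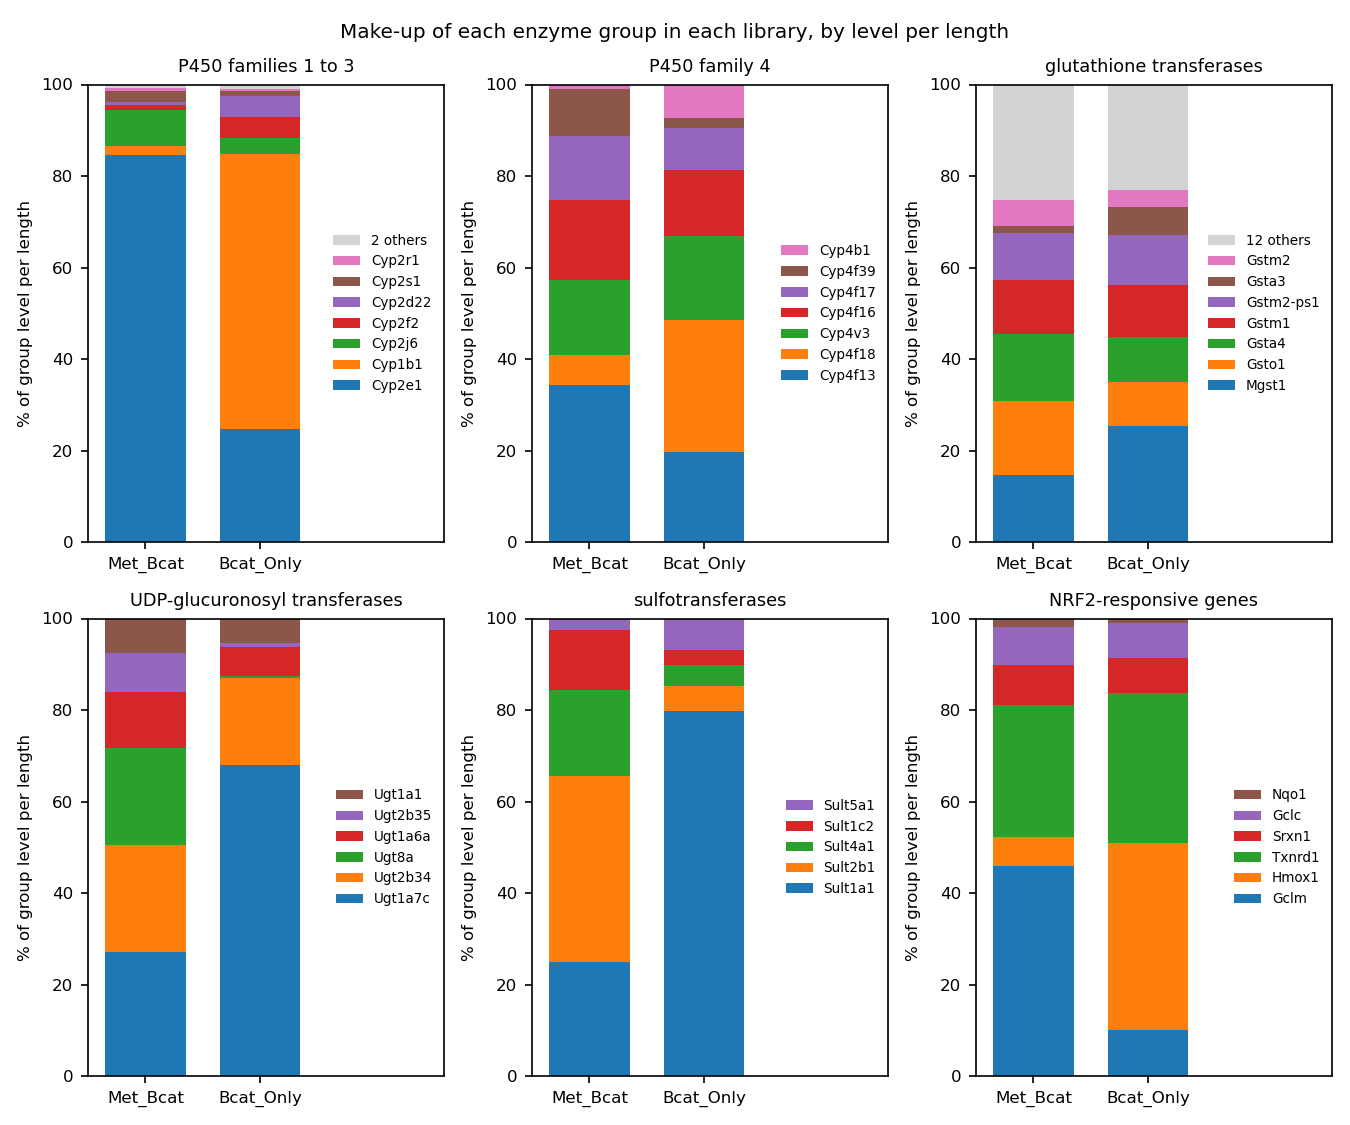
Stacked bars give each gene's share, in percent, of the level per length of its enzyme group in Met_Bcat and in Bcat_Only, over members at or above 1 CPM. Cyp2e1 fills 84.5% of P450 families 1 to 3 in Met_Bcat and Cyp1b1 60.1% in Bcat_Only, and Sult1a1 fills 25.02% of the sulfotransferases in Met_Bcat and 79.8% in Bcat_Only.

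Other genes of the pathway were followed in 5 lists. Their counts stand beside the shares over all 14354 genes at or above 1 CPM, 4.42% higher and 14.6% lower by the same rule. The lists are short, so a count of 1 or 2 genes describes those genes and not the list. Among 13 measured regulators, 0 were higher and 2 lower, with a median log2 ratio of -0.090. Nfe2l2, which encodes NRF2, had 208 CPM in Met_Bcat and 201 CPM in Bcat_Only, a ratio of 1.03 (0.99 to 1.08), and Keap1, its inhibitor, had a ratio of 1.31 (1.21 to 1.41). Hnf4a, a factor of liver and gut epithelium, had 3 reads in Met_Bcat and 39 in Bcat_Only, 14.9-fold lower (4.73 to 75.2). Nr1i2, the PXR gene, had 0 reads in both libraries, and Nr1i3, the CAR gene, had 4 in Met_Bcat and 0 in Bcat_Only. Of 8 other NRF2 targets measured, among them Txn1, Prdx1, Sqstm1 and the ferritin genes, 0 were higher and 0 lower, and their median was -0.39.

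P450 partners and other phase I enzymes had a median of -0.54 over 14 measured genes, 0 of them higher and 5 lower. Por, the reductase that feeds electrons to microsomal P450s, had 105 CPM in Met_Bcat and 230 CPM in Bcat_Only, 2.19-fold lower (2.08 to 2.30). The flavin monooxygenase Fmo1 was 3.91-fold lower (3.20 to 4.80), the carbonyl reductase Cbr3 3.39-fold (2.53 to 4.62) and the aldose reductase relative Akr1b8 2.25-fold (2.04 to 2.48). The fifth, Fmo2, was 2.23-fold lower. Under scaling to total counts or to the upper quartile, Por, Akr1b8 and Fmo2 were no longer counted and 2 genes were lower.

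Glutathione and NADPH supply had a median of -0.35 over 18 genes, 1 higher and 2 lower. The higher gene was Gss, glutathione synthetase, which completes the step after glutamate-cysteine ligase. It had 1942 reads or 92.1 CPM in Met_Bcat and 693 reads or 37.6 CPM in Bcat_Only, 2.45-fold higher (2.24 to 2.68), a call that was lost under scaling to luminal markers. The lower genes were the glutathione peroxidases Gpx2, of gut-type epithelium, at 3.18-fold (2.92 to 3.47), and Gpx3, the secreted form, at 2.50-fold (2.45 to 2.56), with 590 CPM in Met_Bcat and 1475 CPM in Bcat_Only.

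Donor synthesis, other transferases and exporters had a median of -0.27 over 17 measured genes, 1 higher and 2 lower. Abcc2, an exporter of glutathione and glucuronide conjugates, had 80 reads in Met_Bcat and 17 in Bcat_Only, 4.11-fold higher (2.42 to 7.41), and was not counted as higher under scaling to luminal markers. Abcb1b, a multidrug transporter of mouse, had 37 reads in Met_Bcat and 493 in Bcat_Only, 15.2-fold lower (10.9 to 21.9), and Abcg2 was 3.18-fold lower (2.74 to 3.72).

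**Figure D5:**
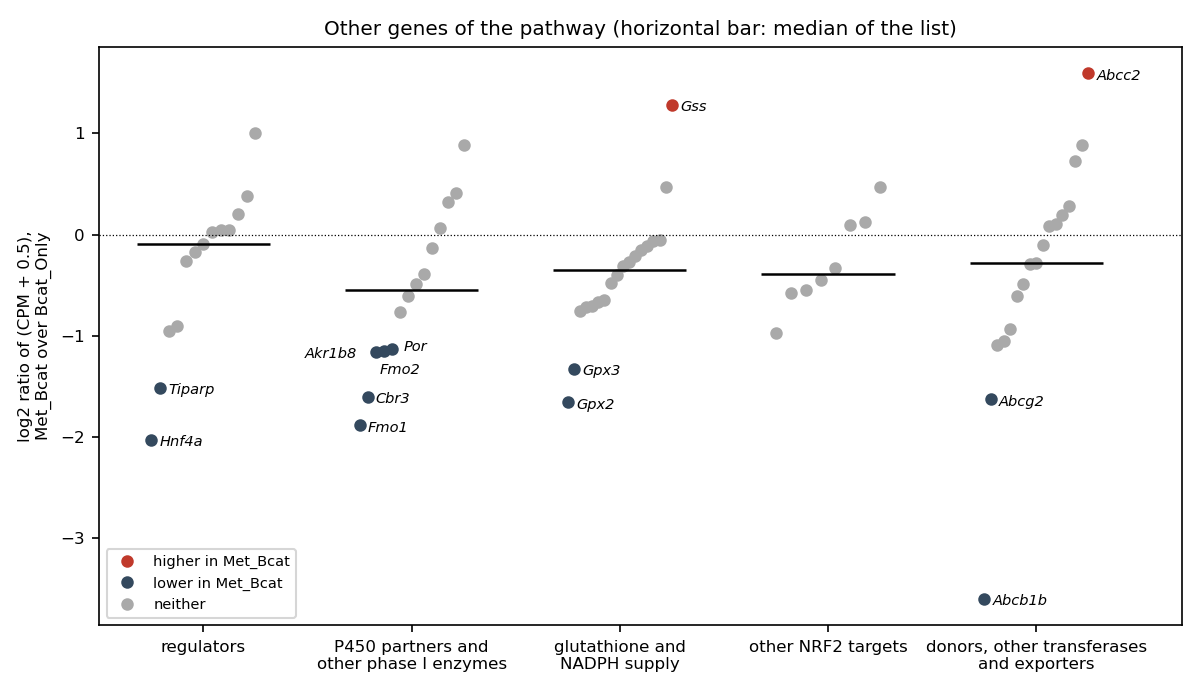
Each point is the log2 ratio of Met_Bcat over Bcat_Only, with 0.5 CPM added, of 1 gene at or above 1 CPM in the 5 lists of pathway genes; red points are higher and dark points lower by the 2-fold rule, and horizontal bars are list medians. Gss and Abcc2 stand above their lists and Abcb1b far below its own, while the other NRF2 targets hold no coloured point.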

How the data were processed

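RNA of 2 prostate tumours was compared, 1 library per genotype. Per the labels' protocols, 200 ng of total RNA per sample entered a stranded mRNA kit with 10 PCR cycles, and 51-base single-end reads were sequenced. The authors deposited whole-number read counts per gene on mm9, with exon lengths. TopHat2 (version 2), HTSeq and edgeR appear in the submitters' processing notes, while settings for alignment, counting and strand were not given in the sources used here. Columns were matched to samples by the sample number in their headings.

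TMM factors from edgeR 4.0.16 (R 4.3.3) scaled the library sizes, 1.05 for Met_Bcat and 0.955 for Bcat_Only. Each gene's ratio, Met_Bcat over Bcat_Only, carries a 95% Clopper-Pearson interval computed from its reads in both libraries. PCR copies without molecular identifiers are not separate molecules, so intervals and floors hold counting error alone. As each genotype has 1 library, no test was run. RPKM was computed from the scaled CPM and the deposited exon lengths. A count of 0 was set to a floor of 3 reads, worth 0.142 CPM in Met_Bcat and 0.163 CPM in Bcat_Only.

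The genes named are the 9 given by name, the 10 furthest higher and lower by the near interval end, the 10 most abundant per length, those around 1 CPM and up to 4 called genes per pathway list. Others, the 8 gene pairs compared within a library (2 are given) and the lower members beyond this rule were chosen after their values were seen. Members and lists were chosen with earlier results of these data known. Sharing of sequence is the share of a gene's 51-base words, in GENCODE M21 transcripts, found in another gene. It stands in for protein identity, which was not analysed here. Of 52 members, 51 were matched by identifier, and 39 of these shared under 5%. RefSeq promoters were found for 121 of 147 members by symbol. Intervals and calls were tested on simulated counts that held counting error alone, so that check does not cover spread between animals or PCR copies.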

Additional observations from a re-analysis of the deposited data

How the results depend on the processing

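No paired analysis was possible because each genotype has 1 library. All 11 lower members were counted as lower under total counts, DESeq2 (1.42.0) size factors, upper quartile and luminal marker scaling (to the median ratio of the luminal markers). A scaling moves all genes alike. The log2 shift against TMM was 0.13 for total counts and -0.44 for luminal scaling, which put the median of all genes at 0.16 and -0.40, against 0.030 under TMM. Under luminal scaling 17 members were lower in place of 11 (Cyp2b19, Cyp2j9, Gstt1, Mgst1, Sult1e1 and Ugt1a1 joined), and Cyp4f39 was no longer counted as higher. Over all genes, 2892 were then lower in place of 2102 and 394 higher in place of 635, so the counts moved across the whole table. Medians under luminal scaling were -0.67 (all members), -0.53 (P450 family 4), -0.38 (glutathione transferases), -1.51 (sulfotransferases) and -0.72 (NRF2-responsive genes). Without members that overlap another gene, 6 of 37 were lower, a share nearer to the 14.6% of all genes than that of the main setting. The share over all genes was not recomputed without overlapping genes. The UDP-glucuronosyl median was then 0.90 over 3 members in place of -0.95, since the Ugt1a genes leave. A 4-fold rule left 1 higher member and a point ratio gave 5. Means in place of medians gave -0.57 for all members, -0.48 for P450 family 4 and -1.16 for sulfotransferases. The sulfotransferase median was -1.21 with a minimum of 0.2 CPM and -3.64 with 5 CPM, where 1 member was left. The P450 family 4 median was -0.53 with 0.2 CPM or no minimum, and the median of families 1 to 3 was -0.091 with no minimum, which admits genes with a few reads. The signs of the P450 family 4 and glutathione transferase medians turned under total counts, to 0.028 and 0.13.

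The pathway lists were rescaled as an alternative chosen after seeing the data. Under luminal scaling 4 regulators, 6 glutathione supply genes, 1 other NRF2 target (Fth1) and 5 genes of conjugation and export were lower, and 0 of the last list and of glutathione supply were higher. Under total counts or the upper quartile 2 P450 partners were lower in place of 5.

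The member with the most reads was a different gene in each library, so shares without it describe each library and make no comparison. For P450 families 1 to 3 the share was 0.00423% in Met_Bcat (without Cyp2e1) and 0.0122% in Bcat_Only (without Cyp1b1), and for family 4 it was 0.00733% in Met_Bcat (Cyp4f13) and 0.00808% in Bcat_Only (Cyp4v3). It was 0.0577% in Met_Bcat (Gsto1) and 0.0494% in Bcat_Only (Mgst1) for glutathione transferases, and 0.00193% in Met_Bcat (Ugt2b34) and 0.00315% in Bcat_Only (Ugt1a7c) for UDP-glucuronosyl transferases. It was 0.000522% in Met_Bcat (Sult2b1) and 0.000984% in Bcat_Only (Sult1a1) for sulfotransferases, and 0.0237% in Met_Bcat (Gclm) and 0.0305% in Bcat_Only (Txnrd1) for NRF2-responsive genes. With the same gene left out of both libraries, chosen after seeing the data, shares were 0.0140% in Met_Bcat and 0.0122% in Bcat_Only without Cyp1b1, 0.00771% in Met_Bcat and 0.00808% in Bcat_Only without Cyp4v3, and 0.0592% in Met_Bcat and 0.0494% in Bcat_Only without Mgst1. They were 0.00203% in Met_Bcat and 0.00315% in Bcat_Only without Ugt1a7c, 0.000691% in Met_Bcat and 0.000984% in Bcat_Only without Sult1a1, and 0.0237% in Met_Bcat and 0.0424% in Bcat_Only without Gclm.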
